A study of Mus musculus with 12 samples.

Results

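The stefins and cystatins examined here were 7 genes of the 54532 in the deposited table: Stfa1, Stfa2, Stfa3, Stfa2l1, BC100530, Cstb and Cst3. They were found by gene name and were chosen by their measured values, because Stfa2l1 and BC100530 differed strongly between groups, and 5 of them lie together in the A-type stefin cluster. All 7 were among the 24102 genes that reached an FPKM (counts scaled by gene length and library total) of at least 0.1 in at least 3 libraries.

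Colon RNA of 12 mice on a C57BL/6N background, aged 6 to 8 weeks, was sequenced in 4 groups of 3 libraries. Tmem173fl/fl mice carried floxed alleles of Tmem173, the gene of the DNA-sensing adaptor STING, and no Cre. Tmem173iΔmye mice carried the same floxed alleles and a tamoxifen-inducible Cre (CreERT2) driven from Lyz2, which is active in myeloid cells, so other colon cells were not meant to lose the gene. Mice of both genotypes received 5 tamoxifen injections and were either left untreated or made colitic with dextran sulfate sodium (DSS) for 7 days, an agent that injures the colon epithelium. Library totals ran from 13823237 to 18718915 counts. In whole colon a loss of Tmem173 itself was not detectable between colitic genotypes (-0.28 ± 0.26 on the log2 scale, SE, edgeR adjusted p = 0.602). Colitic Tmem173iΔmye replicate 5 stood apart from the other libraries on the second principal component (10.29% of variance), at 113.9 against at most 26.5 elsewhere. On the first (38.95% of variance), untreated libraries lay at -72.95 to -47.55 and colitic Tmem173fl/fl libraries at 96.74 to 119.8. Replicate 5 was at -32 there, and colitic Tmem173iΔmye replicates 1 and 2 at 63.55 and 15.55. It was also the only colitic library with high Xist and 0 counts of Y-linked genes, a pattern seen in 1 library of each untreated group. The stefin total, the gene list counts and the summed marker levels below are given without it where that changes them. For list counts without replicate 5 the share called over all genes was not computed, so they cannot be set against that share.

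Stefins and cystatins are tight, reversible inhibitors of the papain-like cysteine proteases, which include most cathepsins. Stefins have no secretion signal and act inside cells, whereas cystatin C, the product of Cst3, is secreted. In mice the A-type stefins form a cluster of recently duplicated genes known for expression in neutrophils and their precursors and in skin. Stefin B, the product of Cstb, is made in most tissues.

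The 5 A-type genes lay within 298.6 kb of chromosome 16 (GRCm38, 36156811 to 36455392), 2 on the plus strand and 3 on the minus strand. Stfa2l1 (ENSMUSG00000059657) spanned 36156811 to 36161953, Stfa1 (ENSMUSG00000071562) 36276951 to 36285373, BC100530 (ENSMUSG00000071561) 36359382 to 36367748, Stfa2 (ENSMUSG00000022902) 36403992 to 36408457 and Stfa3 (ENSMUSG00000054905) 36450537 to 36455392. Cstb (ENSMUSG00000005054) lay on chromosome 10, 78425669 to 78427622, and Cst3 (ENSMUSG00000027447) on chromosome 2, 148871722 to 148875692. All 7 are annotated as protein-coding, and BC100530 is overlapped by the antisense gene Gm15845. How strand was used in counting is not given in the sources used here, so reads of those 2 genes cannot be told apart.

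The A-type genes fell into close pairs. Over the coding sequence, Stfa1 and BC100530 were identical at 285 of 291 aligned bases (97.9%) and Stfa2 and Stfa2l1 at 298 of 309 (96.4%). Stfa3 had no close partner, with 79.3% to 81.6% identity to Stfa1, Stfa2, Stfa2l1 and BC100530. Cstb was 57.5% identical to Stfa1 and Cst3 41.0%. Of the distinct 50-base windows in their annotated transcripts, 22.5% of those of Stfa1, 15.9% of Stfa2, 24.6% of Stfa2l1 and 25.1% of BC100530 occurred exactly in the transcript of another gene, and 0 of those of Stfa3, Cstb and Cst3. At 100 bases the shared portion was 5.1% for Stfa1, 9.5% for BC100530 and 0 for Stfa2 and Stfa2l1. How reads that map to several genes were counted is not given in the sources used here, so the split of reads within a pair is uncertain and the total over the 5 genes is given beside the single genes.

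The promoters of the 5 A-type genes, of which all but Stfa1 were separated between colitic genotypes, resembled each other. The 120 bases before each RefSeq start (GRCm38.p6, strand of the gene) are shown for the 5 members and for Gm5483, another stefin-like gene of the cluster. By the gene spans given above, the stretches of Stfa1 and BC100530 lie inside the annotated gene, as does part of that of Stfa2. Those of Stfa2l1 and Stfa3 end just before the annotated gene. RefSeq lists BC100530 as Cstdc5 and Gm5483 as Cstdc4. Capitals mark the runs of at least 10 bases found in this stretch of all 5 members.
Stfa1, chr16:36277028-36277147, plus strand: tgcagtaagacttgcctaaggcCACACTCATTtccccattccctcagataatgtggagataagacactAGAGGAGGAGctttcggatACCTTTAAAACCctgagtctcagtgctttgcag
BC100530, chr16:36367571-36367690, minus strand: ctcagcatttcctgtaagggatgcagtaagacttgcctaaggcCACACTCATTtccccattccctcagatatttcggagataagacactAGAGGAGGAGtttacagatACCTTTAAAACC
Stfa2, chr16:36408364-36408483, minus strand: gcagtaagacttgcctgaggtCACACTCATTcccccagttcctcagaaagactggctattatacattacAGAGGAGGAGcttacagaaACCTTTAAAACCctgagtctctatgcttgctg
Stfa2l1, chr16:36156691-36156810, plus strand: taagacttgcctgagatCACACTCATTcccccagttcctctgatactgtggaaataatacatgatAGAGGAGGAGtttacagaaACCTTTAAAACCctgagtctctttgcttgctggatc
Stfa3, chr16:36455393-36455512, minus strand: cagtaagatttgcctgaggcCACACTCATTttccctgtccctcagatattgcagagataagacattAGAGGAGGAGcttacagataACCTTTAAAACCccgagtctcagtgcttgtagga
Gm5483, chr16:36184092-36184211, plus strand: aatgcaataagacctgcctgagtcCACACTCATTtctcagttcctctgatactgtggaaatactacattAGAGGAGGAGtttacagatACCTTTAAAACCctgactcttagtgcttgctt

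The run ACCTTTAAAACC occurred in 10 of the 32851 RefSeq promoter windows (250 bases before to 50 after the start), and ACTCAGCATTTCC, which lies further upstream in the 5 members, in 10. The longest run common to the 5 members, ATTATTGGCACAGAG, occurred in 5 windows in all, those of the 5 members themselves. Motifs were searched on both strands of the whole windows. The C/EBP motif TTGCNNAA was found in Stfa1 and BC100530 and in 10.8% of all windows. The ETS core GAGGAA was found in all 5 members and in 28.3% of all windows. The STAT motif TTCNNNGAA and the TATA box TATAAA, in 8.3% and 13.6% of all windows, were found in none of the 5. These matches describe the letters only.

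A-type stefins were almost silent in untreated colon of either genotype. Stfa2 had 0 counts in all 6 untreated libraries, and the 5 genes together had 0, 1 and 1 counts in Tmem173fl/fl and 3, 8 and 0 counts in Tmem173iΔmye replicates 1, 2 and 3. With at most 11 counts over the 3 libraries of a group, no fold between untreated genotypes is given.

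In colitic Tmem173fl/fl mice the A-type stefins were high in every library. Their total was 233, 292 and 115 counts in replicates 1, 2 and 3, or 11.4 ± 3.17 CPM (counts relative to the library total, scaled with edgeR's TMM factors, SD, n = 3), against 2 counts over the untreated libraries. All colitic libraries lay above all untreated ones. The ratio of the pooled levels was 259, with a 95% exact counting interval of 71.4 to 2140 that covers counting error only. Because the genes were chosen on these contrasts, these and the following stefin values are a description with no test.

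Stfa2 had 82, 103 and 30 counts in colitic Tmem173fl/fl replicates 1, 2 and 3. Against the 3 counts over the group that 0 counts allow, it was at least 58.0-fold higher than without DSS. Stfa2l1 had 60, 70 and 46 counts, against 1 count over the untreated libraries, and varied least among the 5 genes at 3.23 ± 0.0924 CPM (SD, n = 3). BC100530 had 64, 80 and 26 counts and was at least 45.9-fold higher than without DSS. Stfa3 had 19, 36 and 11 counts and was at least 17.8-fold higher. Stfa1 remained low, with 8, 3 and 2 counts against 1 over the untreated libraries, although its coding sequence is nearly that of BC100530. Apart from Stfa1, each gene was highest in replicate 2 and lowest in replicate 3, in counts and in CPM.

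Per gene length, Stfa2 and Stfa2l1 were the most abundant A-type stefins in colitic Tmem173fl/fl colon, at 8.12 ± 3.25 and 7.80 ± 0.188 FPKM (SD, n = 3 each), and overlapped in level. BC100530 at 3.85 ± 1.37 FPKM and Stfa3 at 2.85 ± 1.19 FPKM came next and did not differ beyond their spread. Stfa1 was at 0.338 ± 0.242 FPKM. The sum of the 5 genes, 22.9 ± 5.89 FPKM, remained below that of Cstb alone in the same libraries, 94.6 ± 7.54 FPKM.

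**Figure D1:**
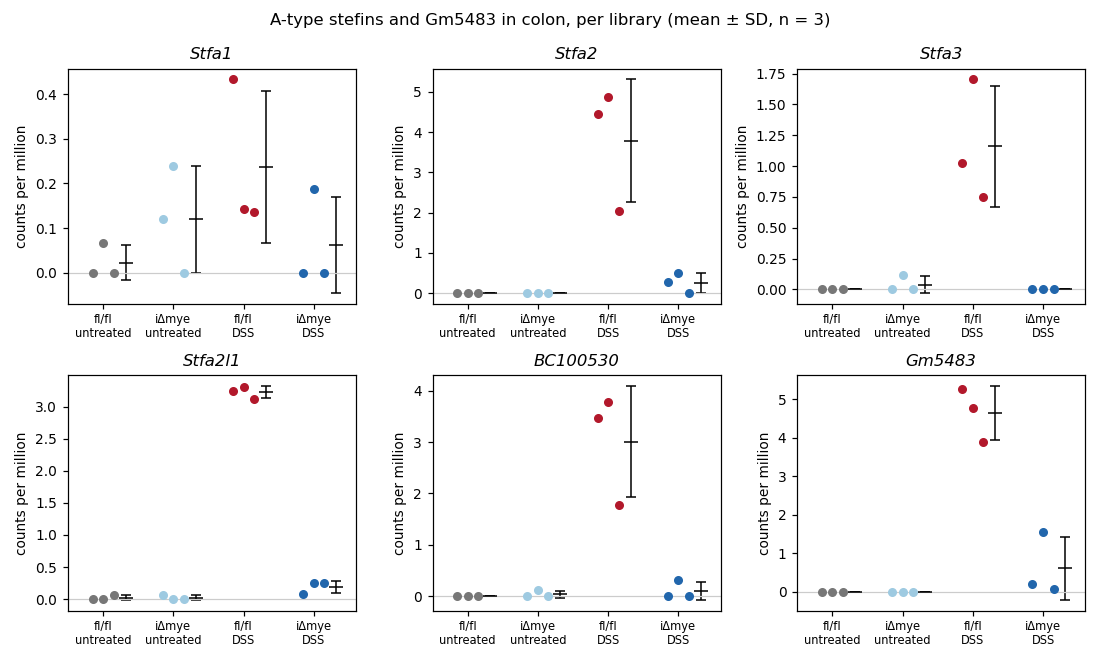
CPM (vertical axis, TMM-scaled) of the 5 A-type stefins and Gm5483 in each of the 12 colon libraries, by group; points are libraries, and the dash with bars is the mean ± SD of 3. Apart from Stfa1, every colitic Tmem173fl/fl library lies above every other library in each panel, for Stfa2l1 at 3.13 to 3.31 CPM against at most 0.249 CPM elsewhere.

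In colitic Tmem173iΔmye mice the A-type stefins were low. The total was 5, 20 and 4 counts in replicates 1, 2 and 5, or 0.614 ± 0.548 CPM (SD, n = 3), and each of these libraries lay below every colitic Tmem173fl/fl library. The pooled level was 18.9-fold higher in colitic Tmem173fl/fl mice (95% counting interval 13.1 to 28.5), and the fitted log2 fold change was -4.21 ± 0.57 (SE). Without replicate 5, the library that stood apart, it was -3.82, and without replicate 2, which held 20 of the 29 counts, it was -5.23.

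Single genes showed the same order. Stfa2 had 4, 8 and 0 counts in colitic Tmem173iΔmye replicates 1, 2 and 5, and differed by -3.85 ± 0.78 (SE, log2) from colitic Tmem173fl/fl. Stfa2l1 had 1, 4 and 4 counts, with -4.04 ± 0.48. BC100530 had 0, 5 and 0 counts, with -4.75 ± 0.90, and its value was -8.68 without replicate 2, which held all of its counts. Stfa3 had 0 counts in all 3 libraries and was at least 18.9-fold higher in colitic Tmem173fl/fl mice. Stfa1 had 0, 3 and 0 counts, and its level was 3.72-fold higher in colitic Tmem173fl/fl mice with a counting interval of 1.02 to 20.3. For Stfa2, Stfa3, Stfa2l1 and BC100530 the genotypes did not overlap in DSS, and for Stfa1 they did. Over all 24102 genes, 4868 had an unadjusted edgeR p under 0.05 between colitic genotypes. The share of all genes without overlap was not counted, here or below.

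A-type stefin reads were few in Tmem173iΔmye mice with or without DSS. The total was 29 counts with DSS and 11 without, a ratio of 2.82 (95% counting interval 1.37 to 6.25), and the fitted log2 fold change was 1.45 ± 1.01 (SE). It moved to 0.43 without colitic replicate 2 and to 2.66 without untreated replicate 2, and was 1.86 without colitic replicate 5. The groups overlapped, since untreated replicate 2 with 8 counts exceeded colitic replicates 1 and 5. Stfa2 alone was at 0 in the untreated libraries, and its 12 counts with DSS put it at least 4.28-fold higher.

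**Figure D2:**
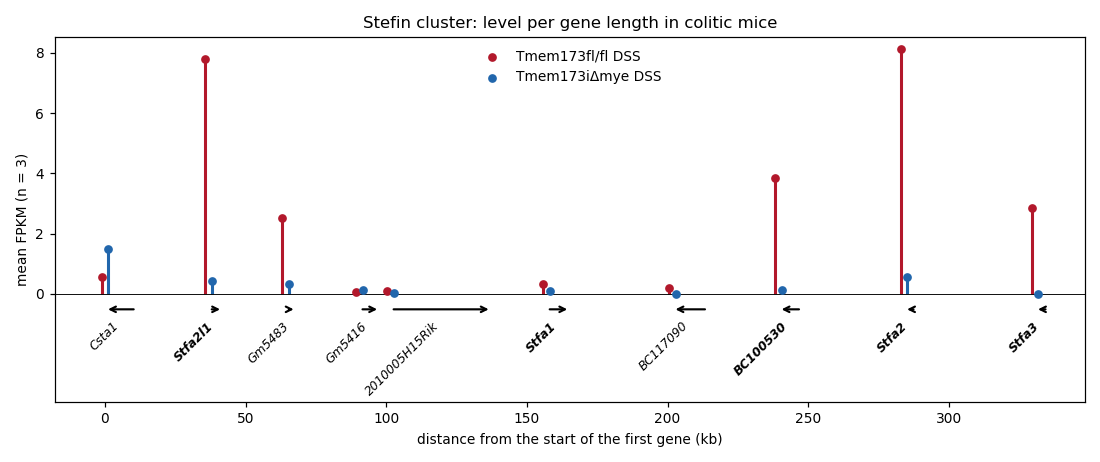
Mean FPKM (vertical axis, n = 3) of the genes of the stefin cluster in colitic Tmem173fl/fl and colitic Tmem173iΔmye mice, against the distance in kb from the start of the first gene; arrows give gene extent and strand, and bold names are the 5 members. High levels in colitic Tmem173fl/fl mice lie toward both ends of the cluster, with Stfa2l1 at 7.80 and Stfa2 at 8.12 FPKM, and Stfa1 between them at 0.338 FPKM.

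The cluster holds further stefin-like genes, and these did not all follow the members. Gm5483 had 97, 101 and 57 counts in colitic Tmem173fl/fl mice and 3, 25 and 1 in colitic Tmem173iΔmye replicates 1, 2 and 5, after 0 counts in all untreated libraries. It was at least 68.8-fold higher with DSS in Tmem173fl/fl mice, and between colitic genotypes the log2 fold change of -2.92 ± 0.81 did not pass the test (edgeR adjusted p = 0.09024). It passed with DESeq2, without a filter and without colitic Tmem173iΔmye replicate 2 (log2 fold change -5.05, edgeR adjusted p = 0.04315). Csta1, the neighbour beyond Stfa2l1, had the opposite order, with 46, 17 and 18 counts in colitic Tmem173fl/fl and 35, 55 and 113 in colitic Tmem173iΔmye replicates 1, 2 and 5. In Tmem173iΔmye mice it rose with DSS by a log2 change of 2.85 ± 0.51 (SE, edgeR adjusted p = 0.02041), and it lost the call when any single untreated library was left out (adjusted p 0.1161 to 0.1519). The genotype difference in DSS, 1.49 ± 0.53, did not pass (edgeR adjusted p = 0.168), and was 0.96 ± 0.50 without replicate 5, the library with 113 counts (edgeR adjusted p = 0.353). Gm5416, BC117090 and 2010005H15Rik had at most 6 counts in any library.

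Cstb was expressed in every library and was higher with DSS in Tmem173fl/fl mice. In untreated Tmem173fl/fl replicates 1, 2 and 3 it was at 43.3, 26.3 and 33.2 CPM, and in untreated Tmem173iΔmye replicates at 38.0, 37.5 and 42.7 CPM. In colitic Tmem173fl/fl replicates 1, 2 and 3 it was at 52.6, 61.6 and 55.1 CPM, and in colitic Tmem173iΔmye replicates 1, 2 and 5 at 35.8, 47.3 and 46.1 CPM. Every colitic Tmem173fl/fl library lay above every other library, while the colitic Tmem173iΔmye libraries overlapped with both untreated groups.

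With DSS, Cstb in Tmem173fl/fl mice was higher by 0.79 ± 0.18 on the log2 scale (SE, edgeR adjusted p = 0.007649), which was under the minimum log2 change of 1 required for a call. In Tmem173iΔmye mice the difference was 0.12 ± 0.19 (edgeR adjusted p = 0.8115). Between colitic genotypes it was -0.40 ± 0.17 (edgeR adjusted p = 0.2387), and between untreated genotypes 0.21 ± 0.19 (edgeR adjusted p = 1). The interaction, the test of whether the DSS effect differed between genotypes, was -0.59 ± 0.26 and did not pass (edgeR adjusted p = 0.2501). Of the 4 group means of Cstb, 56.4 ± 4.65 CPM in colitic Tmem173fl/fl mice came first, followed by 43.1 ± 6.34 CPM in colitic Tmem173iΔmye, 39.4 ± 2.85 CPM in untreated Tmem173iΔmye and 34.3 ± 8.54 CPM in untreated Tmem173fl/fl mice (SD, n = 3 each), and the last 3 did not differ beyond their spread.

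Cst3 showed the same order of group means. It was at 90.0, 76.3 and 83.0 CPM in untreated Tmem173fl/fl replicates 1, 2 and 3 and at 84.7, 92.8 and 115.9 CPM in untreated Tmem173iΔmye replicates. In colitic mice it was at 125.3, 134.5 and 103.7 CPM in Tmem173fl/fl replicates 1, 2 and 3 and at 119.7, 115.7 and 93.1 CPM in Tmem173iΔmye replicates 1, 2 and 5. Colitic Tmem173fl/fl libraries lay above the untreated ones of that genotype and overlapped with both Tmem173iΔmye groups.

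With DSS, Cst3 in Tmem173fl/fl mice was higher by 0.61 ± 0.14 on the log2 scale (SE, edgeR adjusted p = 0.008196), also under the minimum change. In Tmem173iΔmye mice the difference was 0.16 ± 0.20 (edgeR adjusted p = 0.7615). Between colitic genotypes it was -0.15 ± 0.18 (edgeR adjusted p = 0.679), between untreated genotypes 0.24 ± 0.16 (edgeR adjusted p = 1), and the interaction was -0.38 ± 0.24 (edgeR adjusted p = 0.4226). Per gene length the level of Cst3, 64.0 ± 5.18 FPKM in untreated Tmem173fl/fl mice, did not differ beyond its spread from that of Cstb, 55.5 ± 13.7 FPKM.

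Cstb and Cst3 were thus called in 0 of the 5 comparisons with edgeR or DESeq2. At an unadjusted p under 0.05 (edgeR), Cstb differed in 3 of the 5 and Cst3 in 1. Over all 24102 genes tested, 14.9% were called higher and 7.61% lower with DSS in Tmem173fl/fl mice, and 1.48% higher and 0.597% lower in Tmem173iΔmye mice. Between untreated genotypes edgeR called 0% higher and 0% lower, with 720 genes at an unadjusted p under 0.05, and DESeq2 called 1 gene higher and 2 lower. Between colitic genotypes 0.822% were higher in Tmem173iΔmye mice and 1.99% lower, and in the interaction 0.934% higher and 1.61% lower.

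**Figure D3:**
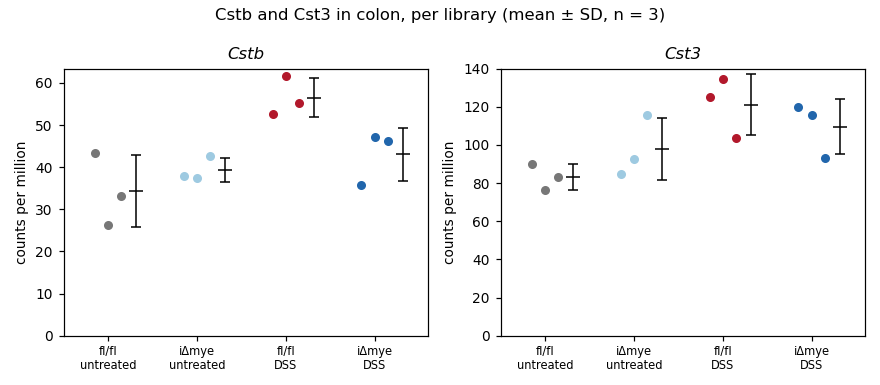
CPM (vertical axis from 0, TMM-scaled) of Cstb and Cst3 in each of the 12 colon libraries, by group; points are libraries, and the dash with bars is the mean ± SD of 3. Cstb is at 52.6 to 61.6 CPM in colitic Tmem173fl/fl mice against at most 47.3 CPM elsewhere, while the ranges of Cst3 overlap between colitic genotypes.

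Cysteine proteases were counted from a list of 10 cysteine cathepsins and legumain, and which of them each inhibitor binds was not examined. With DSS in Tmem173fl/fl mice 4 of the 11 genes were called, all higher, at a median log2 fold change of 0.68 against 0.03 over all genes. Ctsk, a collagen- and elastin-degrading cathepsin, rose by 3.44 ± 0.20 (SE, edgeR adjusted p = 2.401e-06). Ctsl, a broad lysosomal endopeptidase, rose by 2.50 ± 0.23 (edgeR adjusted p = 3.268e-05). Lgmn, the lysosomal asparaginyl endopeptidase legumain, rose by 2.41 ± 0.19 (edgeR adjusted p = 1.384e-05), and Ctsf by 1.62 ± 0.22 (edgeR adjusted p = 0.000313). Ctsb, the most abundant of the named proteases in reads, was at 735 ± 109 CPM without and 1120 ± 151 CPM with DSS (SD, n = 3 each), a log2 fold change of 0.68 ± 0.17 that was under the minimum change. Ctsh, an aminopeptidase, was at 0.62 ± 0.17, and Ctss, the cathepsin of antigen-presenting cells, at -0.54 ± 0.17.

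In Tmem173iΔmye mice 1 of the 11 proteases was called with DSS, at a median log2 fold change of 0.34 against 0.02 over all genes. This was Lgmn, which rose by 1.38 ± 0.24 (SE, edgeR adjusted p = 0.01992), from 74.6 ± 8.02 to 195 ± 57.1 CPM (SD, n = 3 each). The count was 0 when any single untreated library was left out, where Lgmn had adjusted p of 0.1155 to 0.1604, and 2 without colitic replicate 5.

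Between colitic genotypes 2 of the 11 proteases were called, both lower in Tmem173iΔmye mice, at a median log2 fold change of -0.32 against 0.02 over all genes. Ctsl had 6800, 12842 and 5882 counts in colitic Tmem173fl/fl replicates 1, 2 and 3 and 1790, 2043 and 2449 in colitic Tmem173iΔmye replicates 1, 2 and 5. Its log2 fold change was -1.78 ± 0.24 (SE, edgeR adjusted p = 0.01581). Ctsk had 589, 773 and 451 against 160, 205 and 182 counts, with -1.50 ± 0.19 (edgeR adjusted p = 0.01368). The groups did not overlap for either gene, and both kept the call without replicate 5. The count of 2 became 0 without colitic Tmem173fl/fl replicate 1 or colitic Tmem173iΔmye replicate 2, where adjusted p of both genes ran from 0.0522 to 0.07238, and 4 without colitic Tmem173iΔmye replicate 1. Lgmn at -0.95 ± 0.25 (edgeR adjusted p = 0.08233), Ctsf at -1.22 ± 0.28 (0.05456) and Ctss at 0.74 ± 0.19 (0.08196) did not pass. Between untreated genotypes edgeR and DESeq2 called 0 of the 11, with 1 at an unadjusted edgeR p under 0.05, at a median of -0.01 against 0 over all genes.

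The interaction called 3 of the 11 proteases, all with a smaller DSS effect in Tmem173iΔmye mice, at a median of -0.25 against 0.04 over all genes. These were Ctsk (-2.23 ± 0.30, SE, edgeR adjusted p = 0.003962), Ctsl (-1.96 ± 0.29, edgeR adjusted p = 0.005892) and Ctsf (-1.52 ± 0.34, edgeR adjusted p = 0.03186). Ctsf lost the call in 7 of the 12 fits that left out a library. Of the cathepsins of other classes, 3 of 4 were tested and 1 was called, Ctse, an aspartic protease of gastrointestinal epithelium, which fell by 2.69 (log2, SE 0.41) with DSS in Tmem173fl/fl mice (edgeR adjusted p = 0.0007225). Without colitic replicate 5, 1 of the 3 was also called lower with DSS in Tmem173iΔmye mice.

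**Figure D4:**
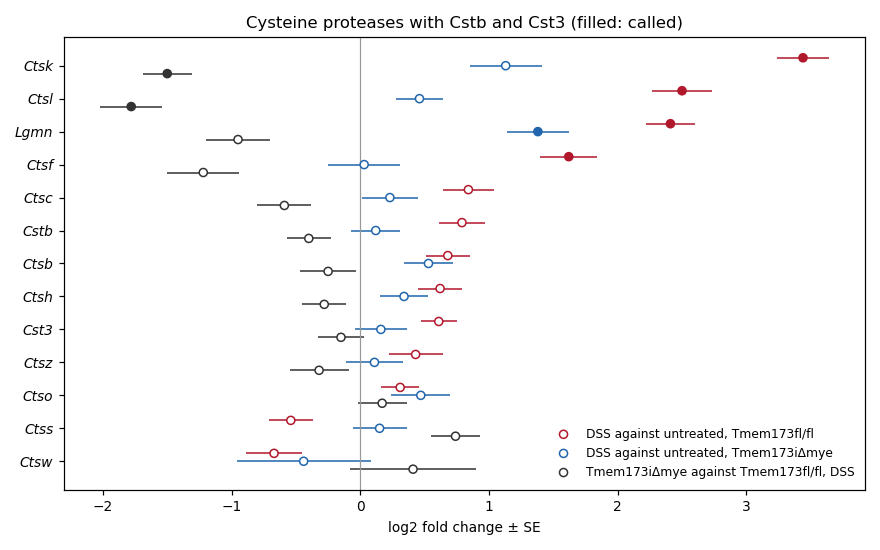
Log2 fold change ± SE (horizontal axis) of the 11 cysteine proteases and of Cstb and Cst3 in 3 comparisons, with filled points for called genes. Ctsk, Ctsl, Lgmn and Ctsf are the filled points with DSS in Tmem173fl/fl mice, and Ctsl and Ctsk those between colitic genotypes, whereas Cstb and Cst3 lie within 1 of zero in all 3 comparisons.

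Among other genes with cystatin domains, 13 of the 22 names found in the table were tested. With DSS in Tmem173fl/fl mice 5 rose and 1 fell, at a median log2 fold change of 1.61 against 0.03 over all genes. Of all genes, 14.9% were called higher and 7.61% lower there. Besides Gm5483 the rises were Ngp and Camp, neutrophil granule proteins of cystatin fold, Kng2, a kininogen, and Cst6, cystatin M. Ngp rose by 7.58 ± 0.67 (SE, edgeR adjusted p = 2.379e-05), from 0, 0 and 15 to 1405, 958 and 988 counts. Kng2 rose by 4.87 ± 0.40, Camp by 5.38 ± 0.87 and Cst6 by 4.26 ± 0.65, and Hrg, a plasma glycoprotein, fell by 3.32 with an SE of 0.97. In Tmem173iΔmye mice 2 rose, where 1.48% of all genes were called higher. These were Csta1 and Kng2, the latter by 3.59 ± 0.58 (edgeR adjusted p = 0.01458). Kng2 lost the call when any single untreated library was left out (edgeR adjusted p 0.08382 to 0.1124) and with limma on log2(FPKM + 0.1) and log2(FPKM + 1) (adjusted p 0.05427 and 0.05321). Without colitic Tmem173iΔmye replicate 5 the count was 4, with Gm5483 and Cst6 besides. Between colitic genotypes 2 were lower in Tmem173iΔmye mice, where 1.99% of all genes were called lower. Ngp was at 13, 82 and 1 counts in replicates 1, 2 and 5, with -4.96 ± 0.93 on the log2 scale (SE, edgeR adjusted p = 0.0317), and Camp was at 1, 0 and 3 counts, with -3.71 ± 0.81 (edgeR adjusted p = 0.04964). Each lost the call in some fits that left out a library, Ngp without any single colitic Tmem173fl/fl library and Camp also without colitic Tmem173iΔmye replicate 1 or 2. Of the 15 alternatives run for each, with other tools, scalings and filters among them, Ngp lost the call in 5 and Camp in 10. The interaction called 0 of the 13 with edgeR or DESeq2, and 1 was higher and 2 lower at an unadjusted edgeR p under 0.05.

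Most genes of neutrophils had the same order between colitic genotypes as the A-type stefins. In whole colon, fewer cells of a type and less RNA per cell cannot be told apart. Of 10 neutrophil genes, 9 rose and Cd177 fell with DSS in Tmem173fl/fl mice (median log2 fold change 7.15), 7 rose in Tmem173iΔmye mice (median 4.47), and 5 were lower in Tmem173iΔmye mice when colitic genotypes were compared (median -2.46). Over all genes 14.9% and 1.48% were called higher with DSS in Tmem173fl/fl and Tmem173iΔmye mice, and 1.99% lower between colitic genotypes. Cd177 and Ly6g had the other direction in that comparison, at 1.01 ± 0.42 (SE, edgeR adjusted p = 0.2305) and 0.27 ± 0.39 (edgeR adjusted p = 0.7408), and neither passed. The interaction called 0 of the 10 with edgeR or DESeq2, and 2 were lower at an unadjusted edgeR p under 0.05. Without colitic Tmem173iΔmye replicate 5, 9 rose and Cd177 fell with DSS in Tmem173iΔmye mice (median 4.45), 6 were lower between colitic genotypes (median -2.02), and the interaction again called 0. Stefin counts with and without DSS in Tmem173iΔmye mice, 29 and 11 (fitted log2 difference 1.45 ± 1.01, SE), were too few to compare with that rise. The largest of the 5 differences with all libraries were those of Mmp8, neutrophil collagenase (-3.47 ± 0.69, SE, edgeR adjusted p = 0.03759), and S100a9, a calprotectin subunit (-2.97 ± 0.56, edgeR adjusted p = 0.03274). The summed level of the list was 264.6 to 293.8 CPM in untreated Tmem173fl/fl, 226.2 to 463.9 in untreated Tmem173iΔmye, 487.7 to 807.7 in colitic Tmem173fl/fl and 337.2 to 522.0 CPM in colitic Tmem173iΔmye libraries. The 522.0 CPM was replicate 5, of which Cd177 made up 230.6 and Ly6g 239.0 CPM, and without it the colitic genotypes did not overlap (337.2 to 393.8 CPM). Without DSS nearly all of the sum came from Cd177 and Ly6g. The other 8 genes summed to 5.14 to 10.5 CPM in untreated libraries, 344.0 to 506.2 CPM in colitic Tmem173fl/fl and 115.4, 107.9 and 52.4 CPM in colitic Tmem173iΔmye replicates 1, 2 and 5, a sum added after the values were seen. The part of these cells in the stefin difference was not tested.

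Stefin reads were also set against those of S100a8 and S100a9, which encode the subunits of calprotectin and are abundant in neutrophils. S100a8 and S100a9 together had 4941, 3899 and 3859 counts in colitic Tmem173fl/fl replicates 1, 2 and 3 and 480, 870 and 165 in colitic Tmem173iΔmye replicates 1, 2 and 5. Per 100 of these reads there were 4.72, 7.49 and 2.98 A-type stefin reads in the former and 1.04, 2.30 and 2.42 in the latter. The proportions differed less between genotypes than the stefin counts did, and the 2 groups did not overlap, with 2.98 against 2.42 as the nearest values. Those of colitic Tmem173iΔmye mice rest on 5, 20 and 4 stefin reads. Whether the proportions differ beyond counting error was not tested.

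**Figure D5:**
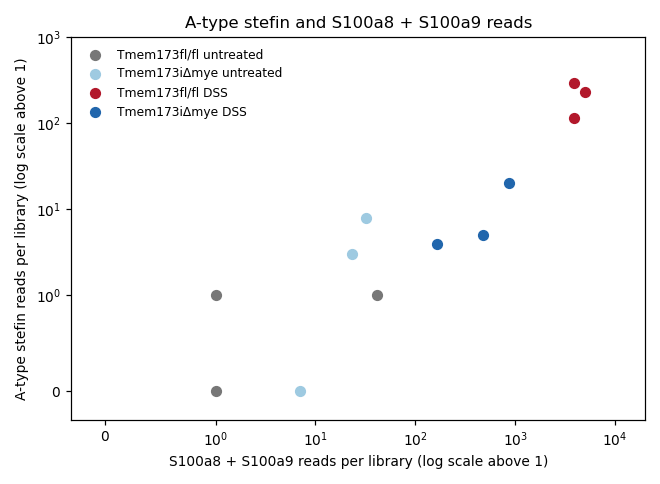
Reads of the 5 A-type stefins (vertical axis) against reads of S100a8 and S100a9 (horizontal axis) in each of the 12 colon libraries, both axes on a log scale above 1 and linear below. The 3 colitic Tmem173fl/fl libraries lie at 3859 to 4941 S100a8 and S100a9 reads with 115 to 292 stefin reads, and the 3 colitic Tmem173iΔmye libraries at 165 to 870 with 4 to 20.

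Markers of other cell types that could contribute such reads were counted as well. Over all genes 14.9% were called higher with DSS in Tmem173fl/fl mice, and 0.822% higher and 1.99% lower between colitic genotypes. At those shares, 0 called genes in a short list do not set it apart. Of 12 squamous keratinocyte genes, 6 were tested, 2 rose with DSS in Tmem173fl/fl mice (Krt5 and Sbsn) and 0 differed between colitic genotypes with edgeR or DESeq2 (1 at an unadjusted edgeR p under 0.05). Their summed level was 9.21 to 11.2 CPM in colitic Tmem173fl/fl libraries and 5.77, 5.66 and 14.4 CPM in colitic Tmem173iΔmye replicates 1, 2 and 5. The overlap came from replicate 5, and without it both Tmem173iΔmye libraries lay below all colitic Tmem173fl/fl libraries. Of 6 granule genes of neutrophil precursors, 2 were tested, Elane and Prtn3, and 0 differed between colitic genotypes with edgeR or DESeq2 (1 at an unadjusted edgeR p under 0.05), at a median log2 fold change of -2.93. The list summed to 1.73 to 3.06 CPM in colitic Tmem173fl/fl and 0.746 to 1.09 CPM in colitic Tmem173iΔmye libraries, without overlap, from at most 45 counts per library, and its part in the stefin difference was not tested. Of 8 macrophage genes, 6 rose with DSS in Tmem173fl/fl mice and 1, Mrc1, was lower in colitic Tmem173iΔmye mice (-1.74 ± 0.22, SE, edgeR adjusted p = 0.01368). The summed macrophage level was 710.3 to 982.6 CPM in colitic Tmem173fl/fl and 262.9 to 624.0 CPM in colitic Tmem173iΔmye libraries, without overlap. Of the 8 genes, 6 had a log2 fold change below 0 between colitic genotypes and 2 above. Adgre1 was at 28.9 ± 4.22 and 29.5 ± 8.23 CPM in colitic Tmem173fl/fl and Tmem173iΔmye mice (SD, n = 3 each). Cx3cr1 was at 9.11 ± 4.56 and 16.3 ± 8.51 CPM. The part of macrophages in the protease and inhibitor values was not tested.

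Most markers of colon epithelium ran opposite to the stefins and proteases. Of 8 such genes, 4 fell and Car1 rose with DSS in Tmem173fl/fl mice, at a median log2 fold change of -1.10 against 0.03 over all genes. Of all genes, 7.61% were called lower there. In Tmem173iΔmye mice edgeR and DESeq2 called 0 of the 8 (3 lower at an unadjusted edgeR p under 0.05, median -0.55), or 1 higher with edgeR without replicate 5. Between colitic genotypes 1 was higher in Tmem173iΔmye mice, Slc26a3, the chloride and bicarbonate exchanger of surface colonocytes (1.84 ± 0.35, SE, edgeR adjusted p = 0.03321), and 3 with DESeq2, at a median of 0.63. The summed level was 8914 to 13770 CPM in colitic Tmem173fl/fl libraries and 15250, 18070 and 8904 CPM in colitic Tmem173iΔmye replicates 1, 2 and 5, so the overlap came from replicate 5. The part of the epithelium in the stefin and protease values, Ctse included, was not tested. Of 5 mast cell and basophil genes, 4 were tested and 0 differed between colitic genotypes with edgeR or DESeq2 (1 at an unadjusted edgeR p under 0.05). With 0.822% of all genes called higher and 1.99% lower there, 0 of 4 does not set this list apart. After DSS the list summed to 106.6 to 121.4 CPM for Tmem173fl/fl mice and 45.8 to 99.5 CPM for Tmem173iΔmye mice, without overlap. Nearly all of this sum was Kit, with group means of 110.2 and 73.8 CPM in that order of genotype. Means of Cpa3 ran the same way, at 2.39 and 1.025 CPM. Those of Mcpt4 (0.84 and 1.25 CPM) and Ms4a2 (0.55 and 0.64 CPM) ran the other way, within their spread. The sum therefore mainly describes Kit, and the part of these cells in the stefin and protease values was not tested.

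Several genes followed the pattern of Stfa2l1 closely over the 12 libraries, measured by Pearson's r of log2(CPM + 1) among 14554 genes with a mean FPKM of at least 1. The nearest were Tmem198b (r = 0.982), Gm20400 (0.981), B9d1os (0.978), Sod2 (0.976), Loxl2 (0.969), Nptx2 (0.968), Angpt1 (0.967) and the protease Ctsl (0.966). Sod2, the mitochondrial superoxide dismutase, was at 239.9 to 303.2 CPM in colitic Tmem173fl/fl libraries and at 98.1 to 132.8 CPM in the other 9. The nearest to Cstb were Cdip1 (0.910), Clba1 (0.902), 5031434O11Rik (0.901) and Msl3l2 (0.899), and to Cst3 BC029722 (0.918), Tnfaip8l2 (0.915), Tyrobp (0.905) and Pim1 (0.900). All points share the same libraries and scaling, so these values only describe likeness.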

How the data were processed

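Each of the 12 libraries is a whole-number count column in the table the authors deposited, beside FPKM values that the authors computed from the counts and gene length. The submitters' processing notes list CASAVA 1.8, fastp, HISAT2 2.0.5, featureCounts 1.5.0-p3, DESeq2 1.20.0 and GRCm38. The deposited group means, log2 fold changes and p-values from DESeq2 were not used. Groups came from the sample labels, and 0 columns of samples lacked a label. Nothing states that replicate numbers pair mice.

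Tests used the deposited counts with edgeR 4.0.16 (glmQLFit, glmQLFTest, TMM) in R 4.3.3 over 24102 genes, Benjamini-Hochberg adjusted. Each fit held just the libraries of its 2 groups, or all 12 for the interaction. The threshold for a call was an adjusted p under 0.05 with an absolute log2 change of at least 1. SE is the log2 change divided by the square root of F. Totals of 13823237 to 18718915 counts set the precision, and a group with 0 counts of a gene was set to 3 counts over its 3 libraries for a lower bound. Intervals of ratios are exact at 95% and cover counting error only. Tested on simulated counts of the colitic genotype comparison, the fit recovered 79% of 200 genes changed by 2 on the log2 scale among 24102 and called 21 unchanged genes. These 21 were a larger share of its calls than the adjusted p threshold of 0.05 aims for. The changed genes were drawn just from those with higher mean counts, so this recovery does not cover genes with few counts.

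The members and gene lists were chosen with earlier results of these data known. Named genes were the members, the 8 genes most like Stfa2l1 and 4 each most like Cstb and Cst3, up to 4 called genes of each list per comparison, and Ctsb, Ctsl, Ctss, Ctsh and Lgmn. Sod2 levels, the neutrophil sum without Cd177 and Ly6g, and the coding and transcript comparisons (GENCODE M21) were added after values were seen. Alternatives used DESeq2 1.42.0, limma 3.58.1 on log2(FPKM + 0.1) and log2(FPKM + 1), other scalings and filters, leaving out single libraries, and a replicate block.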

Additional observations from a re-analysis of the deposited data

Results flagged for a closer look

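The response to DSS differed between genotypes for 3 cysteine proteases by the interaction test over all 12 libraries (edgeR, adjusted over 24102 genes). Ctsk differed by -2.23 ± 0.30 (SE, edgeR adjusted p = 0.003962) on the log2 scale. It went from 3.20 ± 0.579 to 33.1 ± 3.11 CPM with DSS in Tmem173fl/fl mice and from 5.34 ± 0.994 to 11.7 ± 0.902 CPM in Tmem173iΔmye mice (SD, n = 3 each). Ctsl differed by -1.96 ± 0.29 (edgeR adjusted p = 0.005892), with 85.4 ± 16.5 to 459 ± 130 CPM in Tmem173fl/fl and 97.3 ± 4.90 to 134 ± 12.3 CPM in Tmem173iΔmye mice. Ctsf differed by -1.52 ± 0.34 (edgeR adjusted p = 0.03186), with 8.69 ± 1.34 to 25.4 ± 6.16 CPM in Tmem173fl/fl and 10.7 ± 0.804 to 11.0 ± 2.75 CPM in Tmem173iΔmye mice. Of 8 macrophage genes, 7 had an interaction below 0 and 1 above, at a median of -0.80 against 0.04 over all genes. Just 1 of them was called, Mrc1 (-2.08 ± 0.31, SE, edgeR adjusted p = 0.005892). The part of macrophages in the protease values was not tested.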

How the results depend on the processing

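Cstb and Cst3 kept their direction and stayed short of a call in all 5 comparisons under every alternative run, and their adjusted p with DSS in Tmem173fl/fl mice stayed below the threshold, from 0.001076 to 0.03928 for Cstb and from 0.001439 to 0.04366 for Cst3. The A-type stefin total between colitic genotypes was -5.23 to -3.82 over the left-out libraries, -3.49 with limma on log2(FPKM + 1) and -1.69 with the other cluster genes added. With DSS in Tmem173iΔmye mice it was 0.43 to 2.66 over the left-out libraries, 0.66 with limma on log2(FPKM + 1) and 2.61 with the other cluster genes. The number of called cysteine proteases was 9 with an adjusted p alone for DSS in Tmem173fl/fl mice. For DSS in Tmem173iΔmye mice it was 2 with DESeq2, 2 in 1 fit of all 12 libraries, 0 with limma at either pseudocount and 0 to 2 over the left-out libraries. Between colitic genotypes it was 1 with limma on log2(FPKM + 0.1) and 0 to 4 over the left-out libraries. Same-numbered libraries did not deviate together in expression (correlations -0.19 to 0.21), which cannot show whether the numbers pair mice. With a replicate block over libraries that share a number, the total between colitic genotypes was -4.15 and the called proteases were 0 there and 2 with DSS in Tmem173iΔmye mice. The cause of these differences was not tested. With 3 against 3 libraries an exact permutation test cannot go below 0.1, and 4 to 20 stefin counts per colitic Tmem173iΔmye library limit the folds.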

Other observations

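Proteases were also set against the main inhibitors on the FPKM scale. The summed FPKM of the 11 cysteine proteases per FPKM of Cstb and Cst3 was 4.42, 4.53 and 4.09 in untreated Tmem173fl/fl replicates 1, 2 and 3 and 3.6, 4.07 and 3.26 in untreated Tmem173iΔmye replicates. In colitic mice it was 4.01, 4.36 and 4 in Tmem173fl/fl replicates 1, 2 and 3 and 4.5, 4 and 4.18 in Tmem173iΔmye replicates 1, 2 and 5. The colitic genotypes overlapped in this ratio.

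The ratio of Ctsl to Cstb, a single protease to a single inhibitor, had another pattern. On the FPKM scale it was 0.651, 0.917 and 0.675 in colitic Tmem173fl/fl replicates 1, 2 and 3 and 0.208 to 0.331 in the other 9 libraries, without overlap. The ratio of Ctsb to Cstb was 2.12, 2.06 and 1.75 in those replicates and 1.55 to 2.93 in the other 9 libraries, with overlap. These are values of RNA per gene length and say nothing of protein or activity.

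Kng2 and Cst6 were high in most colitic libraries of either genotype. Kng2 had 124, 91 and 71 counts in colitic Tmem173fl/fl and 46, 43 and 38 in colitic Tmem173iΔmye replicates 1, 2 and 5, with an interaction of -1.21 ± 0.71 (SE, edgeR adjusted p = 0.3887). Cst6 had 48, 56 and 37 counts in the former and 30, 68 and 2 in the latter, with an interaction of -0.51 ± 1.47 (edgeR adjusted p = 0.8993), and its low value was that of replicate 5.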
